A study of Mus musculus with 2 samples.

Results

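The genes described here encode the laminin chains, nidogens and heparan sulfate proteoglycans of basement membranes: Lama2, Lama4, Lama5, Lamb1, Lamb2, Lamc1, Nid1, Nid2, Hspg2 (perlecan) and Agrn (agrin). They were chosen by gene symbol, and all 10 were found among the 33456 genes of the deposited count matrices, each in 1 row. Single cells of ciliary epithelium were sequenced in 2 droplet libraries, made from C57BL/6 wild-type mice of postnatal day 35, with no treatment or mutant group. Tissue was freed by collagenase digestion, and each library was a pool, of 3 sets of eyes for library 1 and of 3 or 4 sets for library 2, since the labels give both numbers. The design therefore gives comparisons between cell types within the tissue, with the 2 libraries as replicates, and none between animals.

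Laminins are secreted as trimers of an alpha, a beta and a gamma chain, and trimers are told apart by which chains they hold. The alpha chain carries most binding sites for integrins and dystroglycan on the cell surface. Nidogens link the laminin network to type IV collagen, and perlecan and agrin bind laminin or its receptors and carry heparan sulfate chains. In the ciliary body, basement membranes lie on the vitreous side of the non-pigmented epithelium, on the stromal side of the pigmented epithelium, and around vessels, nerves and muscle. The values below are transcript levels in single-cell data, and the protein laid down in these membranes was not measured.

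Library 1 held 22510387 unique molecular identifiers (UMIs) in 4764 barcodes and library 2 held 30683405 in 6220, and 3865 and 5466 cells were kept, with a median of 4128 and 2968 UMIs per cell. The 2 libraries shared 11 barcodes, of which 8 belonged to kept cells. Cells formed 25 clusters, from which 19 marker-defined classes had at least 20 cells in each library. The classes of those names carried 8 of 8 Schwann cell, 11 of 12 non-pigmented epithelial, 9 of 10 pigmented epithelial and 9 of 9 endothelial markers. The pigmented classes share pigment genes. The markers of pigmented epithelium do not separate ciliary from iris cells, so this class may hold both where it is called a ciliary layer below. Among its 10 leading genes, pigmented epithelium had 1 of its own markers, 2 of melanocytes and 1 of smooth muscle. The melanocyte class carried 7 of 7 melanocyte markers, but its leading genes held 1 of them and 4 of pigmented epithelium. The class called mural cells here carried all 8 pericyte and all 7 smooth muscle markers and is both. The Muller glia also carried 7 of 12 markers of non-pigmented epithelium. A further cluster of rod transcripts with few UMIs per cell stayed unnamed and held 8.20% and 21.7% of the cells. Levels are given as CPM, the UMIs of a gene per 1000000 UMIs of its class, library 1 first and library 2 second. They are compared within a gene across cell classes and never between genes.

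The cell classes held the 10 genes in a few combinations. A gene was listed for a class if its mean level there was at least 25% of that in its own highest class, a threshold chosen after the levels were seen. Endothelium reached it for all 10 genes, or for 9 without a sub-cluster that also held mural genes, which gave most of its Lama2 and without which Lama2 was at 7.32 and 3.03 CPM. Mural cells reached it for 9 (without Nid2) and fibroblasts for 8 (without Lama5 and Nid2). Schwann cells reached it for 7, with Lama2, Lama4, Lamb1, Lamc1, Nid1, Hspg2 and Agrn. Non-pigmented epithelium had 6, namely Lama5, Lamb1, Lamb2, Lamc1, Nid2 and Agrn, and pigmented epithelium also had 6, namely Lama2, Lama5, Lamb1, Lamc1, Nid2 and Agrn. Retinal pigment epithelium kept Lamb1 and Nid2 alone, Muller glia had Lama5, Lamb2 and Agrn, and melanocytes had Lamb2 and Agrn. Amacrine cells and both bipolar classes had Agrn only, and 7 classes (rods, cones and the 5 immune classes) had none. The highest class was the same in both libraries for 5 of the 10 genes, Lama5, Lamb2, Lamc1, Nid1 and Nid2.

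**Figure D1:**
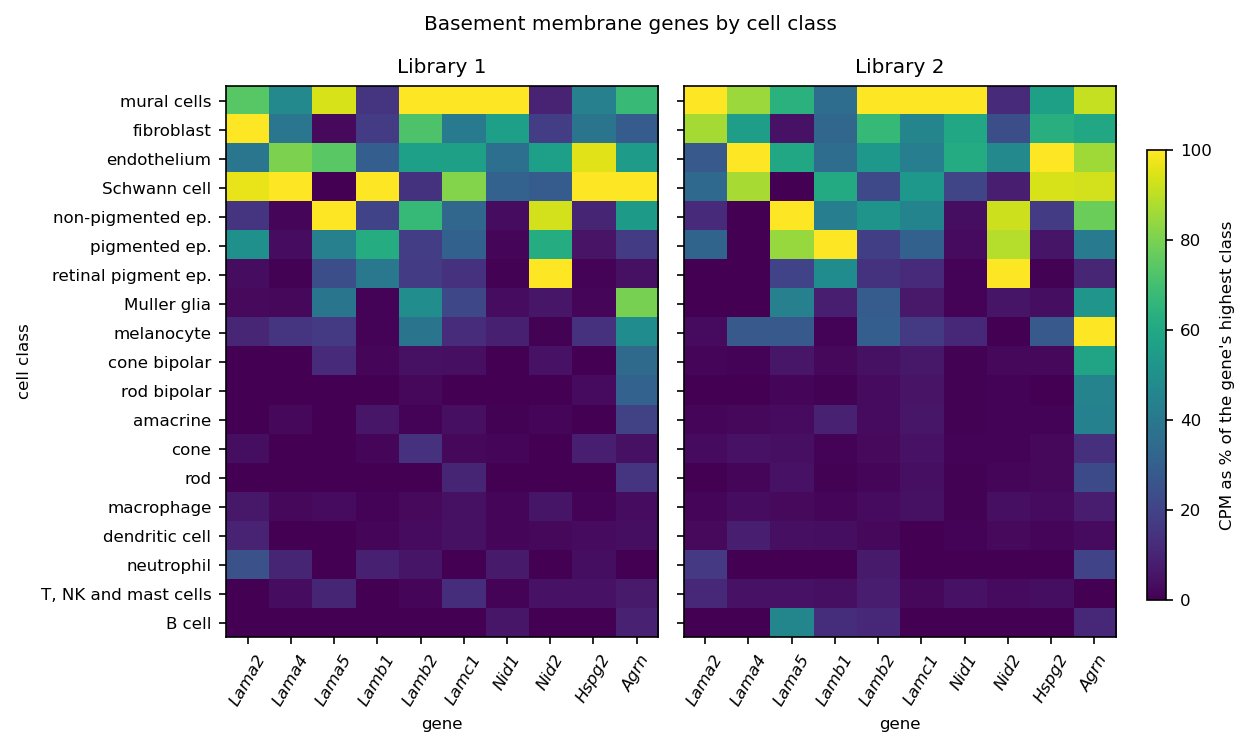
Level of each gene (columns) in each of the 19 cell classes (rows), as a percentage of the gene's highest class within the same library, with library 1 on the left and library 2 on the right. Lama5 and Nid2 are brighter in the 2 ciliary epithelial layers than in fibroblasts, and Lama4, Nid1 and Hspg2 show the opposite. In retinal pigment epithelium Nid2 is bright and Lama5 is at 23.9% and 20.1%. Agrn is above 0 in most rows.

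Of the alpha chains, Lama2, the chain of muscle and nerve basement membranes, was highest in fibroblasts at 104 and 108 CPM and in mural cells at 77.1 and 125 CPM. These classes traded first place between the libraries, and Schwann cells, at 101 and 42.6 CPM, overlapped them. Pigmented epithelium had 52.5 and 40.2 CPM and non-pigmented epithelium 16.2 and 14.9 CPM, while rods stood at 0.148% of the highest class. Lama4, a chain of vessel and nerve membranes, was highest in Schwann cells at 126 and 63.9 CPM and in endothelium at 101 and 73.5 CPM. It followed in mural cells at 59.6 and 62.5 CPM and in fibroblasts at 49.4 and 40.8 CPM, and it was nearly missing from the epithelia, with 2 and 0 UMIs in the non-pigmented and 4 and 0 in the pigmented class. Lama5, the chain of most epithelial basement membranes, was highest in non-pigmented epithelium at 82.2 and 73.4 CPM. Mural cells had 77.1 and 46.9 CPM, endothelium 61.1 and 44.1 CPM and pigmented epithelium 35.7 and 62.0 CPM, so that these 4 classes overlapped along the order. Muller glia had 31.9 and 32.0 CPM in the 2 libraries, and fibroblasts 2.16 and 3.67 CPM. No Lama5 UMI was found in 42 and 33 Schwann cells, which allows up to 31.0 and 39.3 CPM at the upper limit of the exact 95% Poisson interval. Such intervals cover counting error only.

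The beta chains Lamb1 and Lamb2, which replace each other in laminin trimers, were distributed differently over the same tissue. Lamb1 was highest in Schwann cells in library 1, with 294 CPM (interval 205 to 409), and in pigmented epithelium in library 2, with 174 CPM against 107 CPM (51.1 to 196) in Schwann cells. Pigmented epithelium had 182 CPM in library 1 and was thus alike in both, while the Schwann value rests on 35 and 10 UMIs. Retinal pigment epithelium had 118 and 84.8 CPM and non-pigmented epithelium 59.0 and 74.5 CPM, and melanocytes had 3.42 and 1.79 CPM. Lamb2 was highest in mural cells at 228 and 289 CPM, followed by fibroblasts at 164 and 194 CPM. Non-pigmented epithelium had 153 and 150 CPM, and pigmented epithelium 41.0 and 53.5 CPM. Muller glia had 111 and 84.5 CPM and melanocytes 87.7 and 85.9 CPM, levels that overlapped each other.

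The start regions of these 2 genes are shown because their levels ran in opposite directions across the ciliary epithelial layers. RefSeq start regions were available for 7 of the 10 genes, all but Lama4, Lamc1 and Nid2. Each line gives the 250 bases before a RefSeq transcript start, 5′ to 3′ on the gene's strand, and capitals mark GGGCGG or its complement CCGCCC, the GC box that factors of the Sp family can bind. The last line gives Nid1, whose level was near 0 in the epithelia.
Lamb1 (GRCm38.p6, chr12:31265043-31265292, plus strand): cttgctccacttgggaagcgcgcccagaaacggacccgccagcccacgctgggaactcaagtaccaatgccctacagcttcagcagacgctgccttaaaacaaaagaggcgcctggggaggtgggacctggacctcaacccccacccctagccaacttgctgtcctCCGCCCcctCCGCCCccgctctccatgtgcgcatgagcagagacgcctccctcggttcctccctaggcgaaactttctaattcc
Lamb2 (GRCm38.p6, chr9:108479612-108479861, plus strand): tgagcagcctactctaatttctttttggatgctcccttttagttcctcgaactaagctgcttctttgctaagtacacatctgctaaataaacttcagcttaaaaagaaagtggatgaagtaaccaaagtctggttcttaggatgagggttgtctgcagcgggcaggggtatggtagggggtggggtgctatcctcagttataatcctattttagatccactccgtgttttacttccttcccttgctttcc
Nid1 (GRCm38.p6, chr13:13437352-13437601, plus strand): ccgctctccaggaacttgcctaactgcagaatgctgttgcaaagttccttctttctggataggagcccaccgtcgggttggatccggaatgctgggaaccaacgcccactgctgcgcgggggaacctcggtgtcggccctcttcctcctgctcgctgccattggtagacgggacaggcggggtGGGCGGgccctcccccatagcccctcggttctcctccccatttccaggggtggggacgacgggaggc
Lamb1 had 2 such matches, Nid1 had 1 and Lamb2 had 0, and 32.7% of the 32851 RefSeq start regions of the same length held at least 1. The GC content was 62.0% for Lamb1, 64.4% for Nid1 and 43.6% for Lamb2. CCAAT, searched on both strands, occurred 1 time each in Lamb1 and Nid1 and not in Lamb2, against 33.8% of all regions with a match. TATAAA, on both strands, had no match in the 3 regions and a match in 12.4% of all. Of the regions not shown, those of Agrn, higher in the non-pigmented layer like Lamb2, had 12 and 2 GC box matches. That of Lama2, lower in the non-pigmented layer like Lamb1, had 0. These matches describe the letters of the windows and say nothing about what binds there. A link between matches and levels was not tested. In GENCODE's annotation of GRCm38, Lamb1 spans chr12:31265234-31329644 and Lamb2 chr9:108479736-108490530, both on the plus strand, and neither overlaps another annotated gene. Both genes start there before the RefSeq starts used, so the end of each window lies inside the gene as GENCODE gives it.

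**Figure D2:**
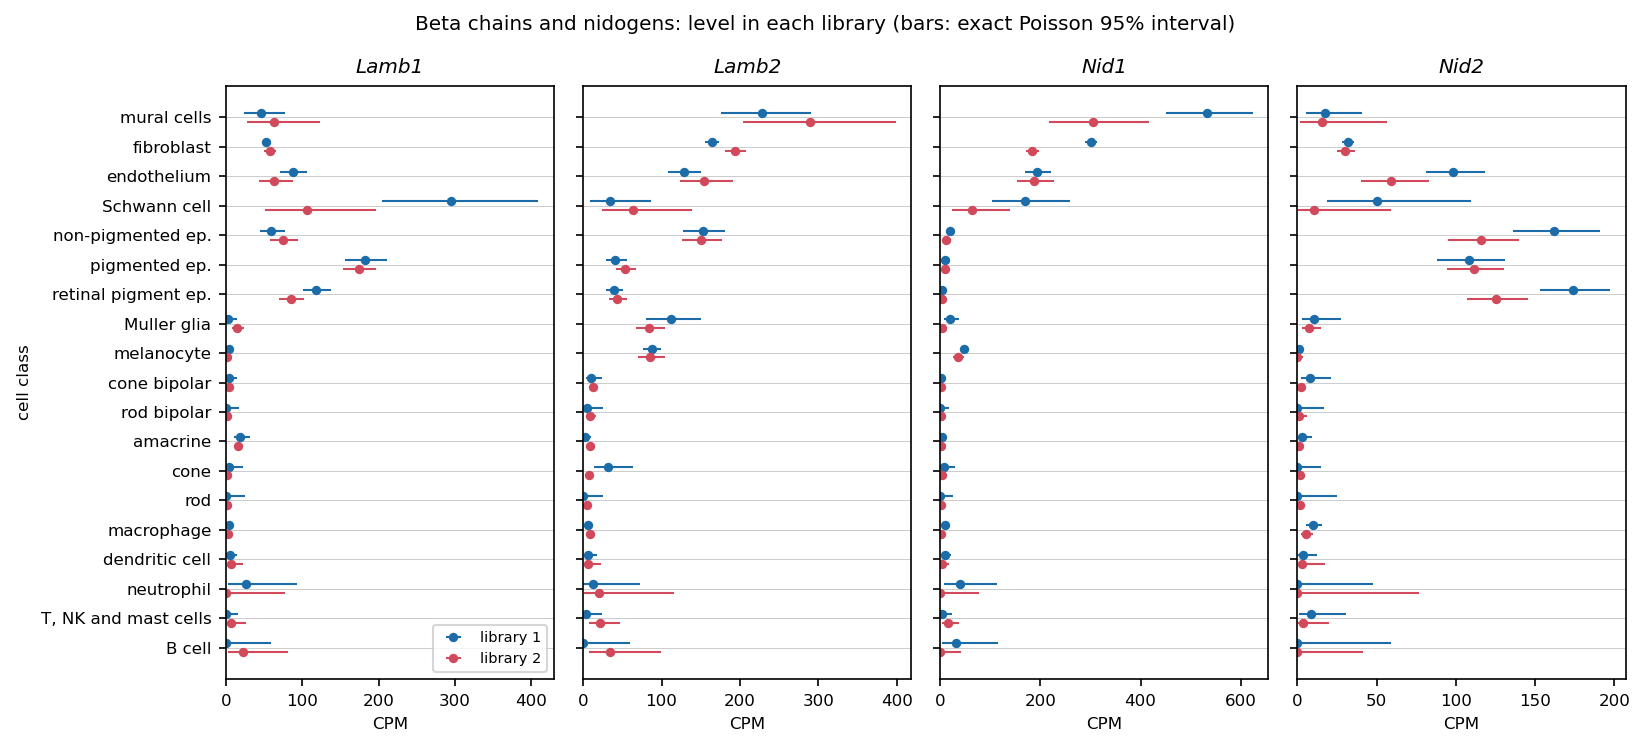
Level of Lamb1, Lamb2, Nid1 and Nid2 in CPM (horizontal axes, a scale for each gene) in the 19 cell classes, with a point for each library and bars for the exact 95% Poisson interval, which covers counting error only. Pigmented epithelium is high for Lamb1 and low for Lamb2, and the epithelia are high for Nid2 and near 0 for Nid1.

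Lamc1, the gamma chain shared by most laminins, was found in 6 classes at 25% or more of its highest level. It was highest in mural cells at 196 and 180 CPM and lowest among these 6 in pigmented epithelium at 60.9 and 55.7 CPM. Schwann cells had 160 and 95.9 CPM, endothelium 111 and 77.2 CPM, fibroblasts 81.5 and 81.6 CPM and non-pigmented epithelium 64.8 and 80.9 CPM. Rods had 20.1 and 7.23 CPM, from 3 and 23 UMIs. Of the 5 laminin chains outside the 10 genes that were looked up, only Lamc3, another gamma chain, passed the filter on low counts, with 63.1 and 78.1 CPM in mural cells, 26.3 and 26.6 CPM in fibroblasts and 24.6 and 31.3 CPM in endothelium. Lama1 was highest at 10.6 and 9.28 CPM in Muller glia.

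The nidogens ran along different classes. Nid1 was highest in mural cells at 532 and 305 CPM, followed by fibroblasts at 300.2 and 183 CPM and endothelium at 194 and 188 CPM, and the 2 last overlapped. Schwann cells had 168 and 63.9 CPM. The epithelia were far lower, with 18.5 and 11.7 CPM in the non-pigmented, 9.45 and 9.16 CPM in the pigmented and 2.81 and 2.95 CPM in the retinal pigment class. Nid2 was highest in retinal pigment epithelium at 174 and 125 CPM, with non-pigmented epithelium at 162 and 116 CPM overlapping it, and pigmented epithelium had 108 and 111 CPM. Endothelium had 98.5 and 58.8 CPM of Nid2, 52.5% of its highest class, beside 45.5% for Nid1. Fibroblasts had 31.7 and 30.3 CPM and mural cells 17.5 and 15.6 CPM.

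Of the proteoglycans, Hspg2 was highest in Schwann cells at 336 and 181 CPM and in endothelium at 321 and 193 CPM. Mural cells had 147 and 109 CPM and fibroblasts 129 and 122 CPM, which overlapped, and non-pigmented epithelium had 34.7 and 34.0 CPM. Agrn was the most widely found of the 10 genes, with 13 of 19 classes at 10% or more of its highest level, against 4 to 9 for the others. Schwann cells had 177 and 95.9 CPM, mural cells 119 and 93.8 CPM, Muller glia 141 and 53.6 CPM, melanocytes 85.8 and 103 CPM, endothelium 96.8 and 88.3 CPM and non-pigmented epithelium 96.1 and 79.8 CPM. These 6 classes overlapped along the order. Cone bipolar cells had 61.3 and 59.9 CPM, rod bipolar cells 55.3 and 45.8 CPM and rods 26.9 and 22.9 CPM, and retinal pigment epithelium had 7.73 and 11.1 CPM. Rods, with a median of 2059 and 3577 UMIs per cell, reached 18.3% of the highest class for Agrn and at most 7.28% for the other 9 genes. Free RNA gives UMIs in droplets of cells that do not express a gene. Macrophages had 5.62 and 8.31 CPM of Agrn and dendritic cells 6.81 and 3.097 CPM, below the rods. Nearer to the rods were B cells at 16.1 and 11.3 CPM and, in library 2, neutrophils at 0 and 20.9 CPM. T, NK and mast cells had 12.8 and 0 CPM. The part of free RNA in any of these levels was not tested.

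Differences between 2 classes were tested with edgeR's quasi-likelihood test on summed counts of the 19 classes in both libraries, with the library as a block. A gene was called if its adjusted p, by Benjamini-Hochberg over the 6801 held-out genes tested, was under 0.05 and its log2 fold change at least 1 in size. All 10 genes passed the filter on low counts. That filter was applied once over all classes, so a gene passed through the classes where it was high.

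Between the 2 layers of the ciliary epithelium, 4 of the 10 genes were called, beside 7.23% of all genes tested (4.57% higher and 2.66% lower). Lamb2 was higher in the non-pigmented layer by 1.69 ± 0.35 (log2 fold change ± SE, n = 2 libraries, edgeR adjusted p = 0.00098), and Agrn by 1.24 ± 0.35 (edgeR adjusted p = 0.0214). Lamb1 was lower there by 1.39 on the log2 scale, a change of -1.39 ± 0.33 (edgeR adjusted p = 0.0047). Lama2 was also lower, with -1.54 ± 0.47 (edgeR adjusted p = 0.0384), from 14 and 14 UMIs in the non-pigmented and 50 and 57 in the pigmented class. The libraries of the 2 layers did not overlap for these 4 genes, nor for the uncalled Lama5, Lamc1, Nid1, Nid2 and Hspg2. Such non-overlap was not counted over all genes. Lama5 (0.67 ± 0.36), Lamc1 (0.35 ± 0.37), Nid1 (0.64 ± 0.52), Nid2 (0.31 ± 0.28) and Hspg2 (1.33 ± 0.49) were not called, and Lama4 was too low for a fold in either layer. Without the library block, the adjusted p was 0.126 for Lama2 and 0.0565 for Agrn. The Lama2 call was lost in 4 alternatives, among them the one without the 34 and 10 pigmented cells rich in Myh11, a smooth muscle gene, at -1.43 and adjusted p = 0.0722. The Lamb2 call was lost with a limit of 15% mitochondrial UMIs, at 1.08 and adjusted p = 0.0729. Cells were clustered anew under that limit, and the non-pigmented class then held 109 and 220 cells, in place of 140 and 145. It also carried 8 of 8 Muller glia markers, in place of 6 of 8, so the class itself had changed. Among the other 54 basement membrane genes tested, 2 were higher and 5 lower in the non-pigmented layer. Col18a1, the collagen that yields endostatin, was higher by 4.82 ± 0.42, with 1201 and 1140 CPM against 34.7 and 48.6 CPM. Col4a4, a type IV collagen chain, differed by -2.15 ± 0.44 and Npnt (nephronectin, an integrin ligand) by -1.82 ± 0.37, both called lower.

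Fibroblasts were compared with the mean of the 2 epithelial layers, and 7 of the 10 genes were called, beside 24.4% of all genes (14.3% higher and 10.1% lower). Higher in fibroblasts were Lama4 by 5.04 ± 0.49, Nid1 by 4.42 ± 0.31 (edgeR adjusted p = 5.67e-13), Hspg2 by 2.65 ± 0.33, Lama2 by 2.12 ± 0.32 and Lamb2 by 1.20 ± 0.27. Lower were Lama5 at -4.31 ± 0.39 (edgeR adjusted p = 1.11e-10) and Nid2 at -1.87 ± 0.25 (edgeR adjusted p = 3.54e-07). The libraries of fibroblasts and epithelia did not overlap for these 7 genes, nor for the uncalled Lamb1 and Lamc1. That was not counted over all genes either. Lamb1, at -0.87 ± 0.28 with adjusted p = 0.015, missed the fold minimum, and Lamc1 (0.44 ± 0.29) and Agrn (0.10 ± 0.28) were not called. In single libraries, taken as log2 CPM differences after adding a prior count of 2, Lama4 gave 3.54 in library 1 and Lama5 -3.62 in library 2. The Lamb2 call was lost without the fibroblast clusters marked by trabecular meshwork genes, at 0.76. Of the other 54 basement membrane genes, 22 were higher and 14 lower in fibroblasts, with Lamc3 higher by 4.92 ± 0.68. The type IV collagens divided, with Col4a1 at 2.38 ± 0.27 and Col4a2 at 2.09 ± 0.31 called higher and Col4a5 at -2.29 ± 0.31 and Col4a6 at -2.23 ± 0.38 called lower. Bcam, a cell surface receptor of the laminin alpha 5 chain, was lower at -3.32 ± 0.35, with 8.90 and 6.84 CPM in fibroblasts and 76.5 and 96.2 CPM in the epithelia.

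Endothelium and mural cells, which share the vessel wall, differed in 1 of the 10 genes, beside 7.23% of all genes (4.22% higher and 3.01% lower). Nid2 was higher in endothelium by 2.36 ± 0.50 (edgeR adjusted p = 0.00169). Nid1 differed by -0.99 ± 0.34 (edgeR adjusted p = 0.0764), Lama2 by -1.23 ± 0.50, Lamc1 by -0.89 ± 0.39, Lamb2 by -0.76 ± 0.35 and Hspg2 by 1.07 ± 0.42, none of them called. Nid1 stayed uncalled in only 4 of 10 alternative fits and was called lower in the rest, at -1.62 to -0.79 over all 10. Lama2 stayed uncalled in 7 of 10. The mural class held 57 and 34 cells, with 2 to 152 UMIs per gene and library. Of the endothelial Lama2 UMIs, 43 of 48 and 18 of 19 came from a sub-cluster of 29 and 12 cells that also held Rgs5, Dcn and Pdgfrb, genes of mural cells and fibroblasts, and had a median of 14161 UMIs per cell. Without that sub-cluster, Lama2 was lower in endothelium at -3.94 ± 0.71 (edgeR adjusted p = 0.000144) and Nid1 at -1.62 ± 0.34 (edgeR adjusted p = 0.00092). Of the other 54 basement membrane genes, 3 were higher in endothelium, among them the laminin receptor subunit Itga6 by 5.48 ± 0.65. Tinagl1, a matrix protein that binds laminins, was among the 5 called lower, at -1.83 ± 0.39, with 543 and 500.2 CPM in mural cells. Over all genes, 287 of the 492 called were higher in endothelium, and 161 of 368 in DESeq2.

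Schwann cells were set against fibroblasts, and 3 of the 10 genes were called, beside 8.23% of all genes (2.63% higher and 5.60% lower). Lamb1 was higher by 1.48 ± 0.38 (edgeR adjusted p = 0.00985). Lamb2 was lower at -2.32 ± 0.50 (edgeR adjusted p = 0.00163) and Nid1 at -1.47 ± 0.41 (edgeR adjusted p = 0.0191). In Schwann cells, Lamb2 had 4 and 6 UMIs and Nid1 had 20 and 6. Lama2 (-0.96 ± 0.52), Lama4 (0.67 ± 0.49), Lamc1 (0.25 ± 0.44), Hspg2 (0.61 ± 0.41), Agrn (0.88 ± 0.41) and Nid2 (-0.39 ± 0.55) were not called, and no fold is given for Lama5, low in both classes. The median over all genes was -0.46 in this comparison and -0.19 with other size factors, against 0.02 in DESeq2, and 179 of the 560 called genes were higher, against 205 of 445 and 232 of 388. The Nid1 call was kept in 5 of 10 alternatives. Among those that lost it were both of those scalings, at -1.19 and -1.22, and the fit without the library block (edgeR adjusted p = 0.142). The Lamb1 call was kept in 8 of 10 alternatives. Lamb1 was at 0.48 in library 2 alone and at 0.72, no longer called, without the trabecular meshwork clusters. Among the other 54 genes, 10 were higher and 7 lower. Smoc1, a calcium-binding basement membrane protein, had no UMI in Schwann cells and 171 and 246 CPM in fibroblasts.

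Muller glia span the retina and form its inner limiting membrane, and they were compared with the mean of rods, cones, rod bipolar, cone bipolar and amacrine cells. Of the 10 genes, 6 were called higher and 0 lower, beside 18.3% of all genes called either way (14.5% higher and 3.88% lower). Lama5 was higher by 3.71 ± 0.45, Lamb2 by 3.62 ± 0.31 (edgeR adjusted p = 1.00e-11), Nid2 by 2.21 ± 0.57, Agrn by 1.43 ± 0.28 and Lamc1 by 1.27 ± 0.44. The Nid2 call rested on only 4 and 7 UMIs in Muller glia, at 10.6 and 7.22 CPM, near the 9.55 and 5.11 CPM of macrophages. Lamb1 was called at 1.97 ± 0.57 from 1 and 14 UMIs in Muller glia, but library 1 alone gave -0.06, and 3 alternatives lost the call. Of the classes in the mean, amacrine cells had more Lamb1 than Muller glia, at 18.4 and 16.3 CPM against 2.65 and 14.4 CPM. Rods (0 and 0.943 CPM) and rod bipolar cells (0 and 1.07 CPM) had less. Cones and cone bipolar cells had less in library 2 only. Cone bipolar cells had more Agrn than Muller glia in library 2, at 59.9 against 53.6 CPM, but not in library 1. The rest had less Agrn in both libraries. Library 1 and library 2 alone gave 2.61 and 0.30 for Lamc1 and 2.21 and 0.63 for Agrn, and library 2 alone gave 2.88 for Lama5 and 1.39 for Nid2. The calls of Lamc1 and Nid2 were each lost in 2 alternatives. Nid1 (1.69 ± 0.65) and Hspg2 (1.08 ± 0.72) were not called, and Lama2 and Lama4 had at most 1 UMI in Muller glia of either library. Muller glia carried the 7 non-pigmented epithelial markers named above, and their part in these values was not tested. Of the other 54 genes, 17 were higher and 1 lower, among them Sparc at 2.95 ± 0.51, Sulf1, an enzyme that trims heparan sulfate, at 3.62 ± 0.31 and the integrin subunit Itgb1 at 2.14 ± 0.23.

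Retinal pigment epithelium was compared with the pigmented epithelium of the ciliary body or iris, with which it is continuous. Of the 10 genes, 4 were called lower and 0 higher, beside 12.5% of all genes called either way (6.34% higher and 6.18% lower). Lama2 was lower at -4.31 ± 0.64 (edgeR adjusted p = 8.36e-06), with 3.51 and 0 CPM. Hspg2 was lower at -2.32 ± 0.73 (edgeR adjusted p = 0.0287), Agrn at -1.65 ± 0.43 (edgeR adjusted p = 0.00619) and Lama5 at -1.18 ± 0.40 (edgeR adjusted p = 0.0441). The Hspg2 value came from 4 and 2 UMIs in retinal pigment epithelium and 17 and 15 in the pigmented class. Nid2 (0.74 ± 0.27), Lamb1 (-0.49 ± 0.31), Lamb2 (0.13 ± 0.36), Lamc1 (-0.89 ± 0.39) and Nid1 (-1.41 ± 0.66) were not called. In library 1 alone, Lama2 gave -3.17 and Lama5 -0.52. Without the library block, the edgeR adjusted p was 0.0878 for Lama5 and 0.0754 for Hspg2. In that fit 2 of the 10 genes were called, beside 665 of all 6801 genes tested. Of the other 54 genes, 7 were higher and 8 lower. Col4a3 at 2.37 ± 0.39 and Col4a4 at 2.10 ± 0.36 were higher, and Col4a6 at -5.63 ± 0.65 and Col4a5 at -2.78 ± 0.37 were lower.

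**Figure D3:**
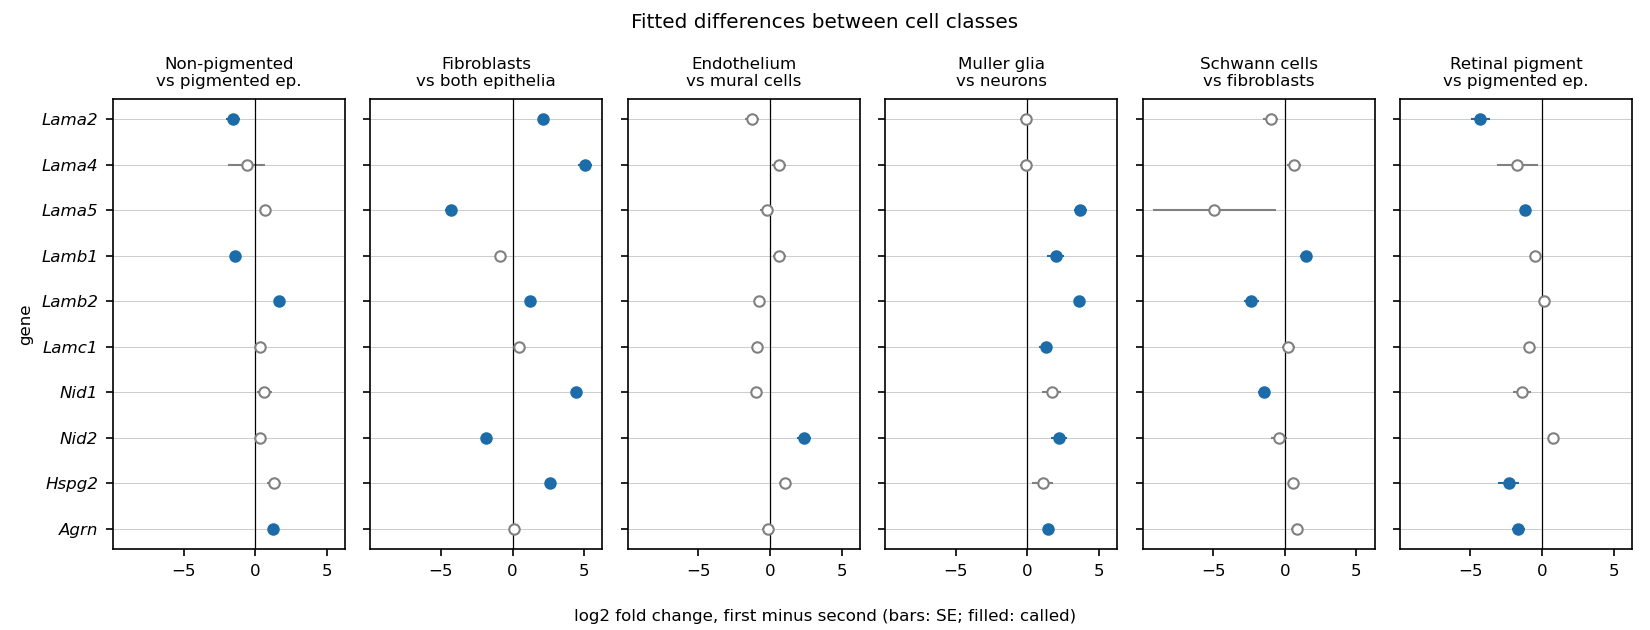
Fitted log2 fold change (first class minus second) of the 10 genes in the 6 comparisons, with bars of 1 SE, filled points for called genes and open points for the rest. Lamb1 and Lamb2 lie on opposite sides of 0 between the 2 ciliary layers and between Schwann cells and fibroblasts.

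Within the fibroblast class, 4 clusters formed without use of these genes differed in several of them. The values are levels with no test. Lamb1 had 4.74 and 7.33 CPM in the cluster led by Myoc, Chad and Fmod, genes of trabecular meshwork and matrix-rich stroma, and 116 and 148 CPM in the cluster led by Clec3b, Ly6a and Dpt. It had 68.7 and 86.7 CPM in the cluster led by Tagln, Edn3 and Foxc1 and 19.2 and 20.8 CPM in a second Myoc cluster. Lamb2 ran from 126 to 362 CPM over the same clusters and libraries. Nid1 was highest in the Tagln cluster in library 1, at 550 CPM, and in the Clec3b cluster in library 2, at 335 CPM, and lay between 75.1 and 113 CPM in the 2 Myoc clusters. Agrn had 107 and 87.8 CPM in the Tagln cluster and 15.6 and 32.8 CPM in the Clec3b cluster, the reverse of the order for Lama2, with 109 and 130 CPM against 162 and 192 CPM.

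**Figure D4:**
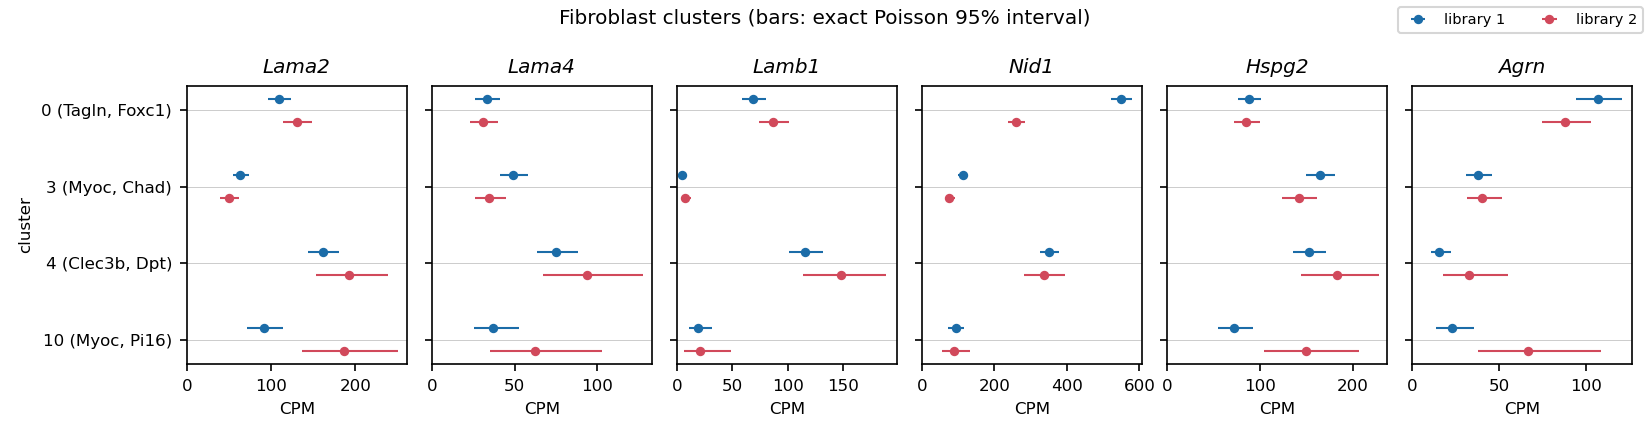
Level in CPM (horizontal axes, a scale for each gene) of 6 genes in the 4 fibroblast clusters, named by number and leading genes, with a point for each library and bars for the exact 95% Poisson interval. Lamb1 is near 0 in cluster 3 and Agrn is highest in cluster 0 in both libraries.

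Endothelium held 5 sub-clusters. Agrn was highest in that led by Slco1c1 and Slc7a5, transporters of barrier-forming vessels, at 232 and 218 CPM, while the sub-cluster rich in Plvap, a gene of fenestrated vessels, had 72.1 and 0 CPM, the latter from 6 cells. With the single library 1 cell of the rod-transcript sub-cluster set aside, Hspg2 and Nid2 were highest in the Plvap sub-cluster, with 477 and 650 CPM of Hspg2 and 137 and 279 CPM of Nid2, against 148 and 148 CPM and 32.2 and 9.89 CPM in the Slco1c1 sub-cluster. A sub-cluster with Ccl21a, Prox1 and Mmrn1, genes of lymphatic endothelium, had the highest Lama4, at 212 and 148 CPM, and 4.33 and 0 CPM of Lama5, from 1 and 0 UMIs. The Plvap sub-cluster had 65 and 6 cells and a sub-cluster with rod transcripts 1 and 32, so each was mostly of 1 library. Mural cells held 2 sub-clusters. That with Rgs5, Kcnj8 and Vtn, pericyte genes, had 309 and 230 CPM of Lamc1 and 370 and 179 CPM of Nid1. The other, with more Acta2 and Myh11, contractile genes of smooth muscle, had 73.1 and 101 CPM of Lamc1 and 709 and 504 CPM of Nid1, from 20 and 7 cells.

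**Figure D5:**
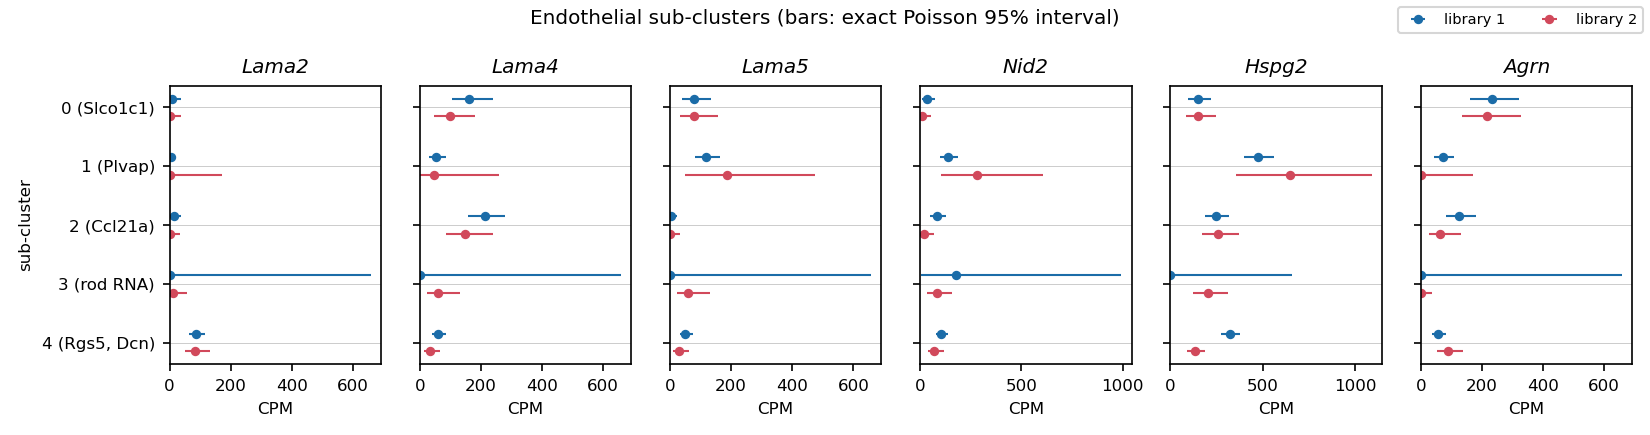
Level in CPM (horizontal axes, a scale for each gene) of 6 genes in the 5 endothelial sub-clusters, with a point for each library and bars for the exact 95% Poisson interval. Lama2 lies in sub-cluster 4, Agrn is highest in sub-cluster 0, and sub-cluster 3 of library 1 is a single cell.

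Across the 19 classes, the genes most like each other in log2 level were Lama4 and Nid1, with a Pearson correlation of 0.93, and Nid1 and Hspg2, also 0.93, followed by Lama4 and Hspg2 at 0.91 and Lamb1 and Nid2 at 0.87. Lama4 and Lama5 were least alike, at 0.16. Among 6281 held-out genes, Tm4sf1 was the most like Lama4 (0.93), Nid1 (0.94) and Hspg2 (0.94), Col4a5 the most like Lama5 (0.85), Lgi1 the most like Lamb1 (0.90) and Fkbp10 the most like Lamb2 (0.94). Lama2 was most like Rerg (0.91), Lamc1 most like Wtip (0.91), Nid2 most like Palmd (0.91) and Agrn most like Inpp5a (0.84). The classes share 2 libraries, differ in depth and are not independent, so these values are a description.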

How the data were processed

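The authors deposited, for each library, raw UMI counts per gene and barcode; the matrix header names Cell Ranger 3.1.0, and the submitters' processing notes name CASAVA 1.8, Cell Ranger, Seurat and mm10/GRCm38. A second deposited count matrix per library held the same values (0 entries differing) and was not used. The annotation release is not given in the sources used here.

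The 10 genes and the gene lists were chosen with earlier results of these data known. Kept cells had 500 genes or more and no more than 30% of UMIs from mitochondrial genes. Scrublet marked 3 and 0 cells, so it did not work and doublets were in effect kept. Genes were split at random into 16827 for clustering, which held the markers, and 16629 held out, which held all genes tested. Cells of both libraries were clustered together (scanpy 1.11.5, 2000 variable genes, 30 components, 15 neighbours, Leiden resolution 1). A cluster took the type with the highest mean fold over its markers, of those with at least 3 markers at 0.5 or more per 10000 UMIs and 4 times the median of the other clusters. This naming rule was set with the clusters' marker levels in view, and other names would give other classes. Trabecular meshwork and stromal clusters were joined with fibroblasts.

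Counts were summed per class and library (38 sums), and edgeR 4.0.16 (TMM, filterByExpr, class and library as terms, 18 residual degrees of freedom) gave fold changes, SE and adjusted p. The p-values measure the spread of class sums over 2 pooled libraries. The library pairs the sums because all classes of a library come from the same pool of eyes. Horizontal and retinal ganglion cells, with under 20 cells in library 1, and the unnamed cluster were left out of the fit. The scripts were tested on simulated data. Named list genes were up to 4 called per list and direction that had 50 or more UMIs per library in the class where they were higher, and the genes most like a member were the 2 with the highest Pearson correlation, of which the text gives mainly the first. Myoc-, Rgs5- and rod-marked sub-groups are named by genes seen in the data. Alternatives were RLE size factors, DESeq2 1.42.0, no filter, no library block, only the classes compared, 15% mitochondrial UMIs, Leiden resolution 2, count splitting, leaving out the 2% of cells with most UMIs, each library alone, and 3 added after seeing the data (without trabecular meshwork clusters, the Myh11-rich pigmented cells, or the endothelial sub-cluster with mural genes).

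Positions came from GENCODE M21 (GRCm38), and start regions from RefSeq (GRCm38.p6).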

Additional observations from a re-analysis of the deposited data

Results flagged for a closer look

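In cells outside the fit, 3 values rested on more UMIs in each library than the 3 that a count of 0 allows. Lamb1 had 14.99 and 45.1 CPM, a mean of 30.04, in the 15 and 49 retinal ganglion cells, from 4 and 61 UMIs, while rods had 0 and 0.943 CPM and amacrine cells 18.4 and 16.3 CPM, above the ganglion cell value of library 1. Agrn had 22.5 and 25.9 CPM, a mean of 24.2, in retinal ganglion cells, near the 26.9 and 22.9 CPM of the rods. In the unnamed cluster of rod transcripts Agrn had 17.6 and 35.5 CPM, a mean of 26.5, below the rods in library 1 and above them in library 2. No test was made of these values, and retinal ganglion cells had a median of 19809 and 22640 UMIs per cell.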

How the results depend on the processing

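Of the 10 genes, the number called changed by over 1.5 times in 4 of the 6 comparisons. Between the ciliary layers and between retinal pigment and pigmented epithelium, 2 genes were called without the library block, in place of 4 in each. Over all 6801 genes, 355 and 665 were then called, in place of 492 and 851. Between endothelium and mural cells, 1 was called, against 2 with RLE size factors, with no filter on low counts or with 15% mitochondrial UMIs, 3 without the sub-cluster with mural genes, and 4 with only the classes compared or without the 2% of cells with most UMIs. Over all genes, 492 of 6801 were called there in the main fit, 482 of 6801 with RLE and 576 of 10515 with no filter. With 15% mitochondrial UMIs the count was 578 of 6466 and without the sub-cluster 704 of 6626. With only the classes compared it was 601 of 3162, and without top cells 578 of 6467. Between Schwann cells and fibroblasts, count splitting left 1 of 3, and 434 of 5795 genes were called over all, in place of 560 of 6801. The block changed no count of the other 4 comparisons by over 1.5 times.

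Directions turned for uncalled values. With 15% mitochondrial UMIs, Nid1 and Nid2 were -1.49 and -0.20 between the ciliary layers, Lama5 0.062 in endothelium against mural cells, Lama4 0.20 in Muller glia and Lamb2 -0.025 in retinal pigment epithelium. That limit came with new clusters, in which the non-pigmented class held 109 and 220 cells in place of 140 and 145. For Agrn in fibroblasts against epithelia, RLE gave -0.0057, DESeq2 -0.0025 and the fit without top cells -0.11. Without the mural-gene sub-cluster, Lama5 was 0.011 and Agrn 0.090 in endothelium. In Muller glia, Lama2 was 0.047 with RLE and 0.27 at resolution 2, and Lama4 0.049 with RLE and 0.38 with count splitting. Single libraries gave -0.060 to 1.71 for the called Lamb1. Lamc1 in Schwann cells was -0.0028 with count splitting and -0.062 without trabecular meshwork clusters, and Lama4 in retinal pigment epithelium 0.50 without top cells. The causes were not tested. Counts per class below about 30 UMIs, as in Schwann and mural cells, limit the precision. No count of calls could be made with a single library, which leaves no residual degrees of freedom.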
